A study of Mus musculus with 4 samples.

Results

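Deubiquitinases are the proteases that remove ubiquitin from other proteins. The members described here are the 40 genes whose symbol begins with Usp and a digit, or with Otud, and for which at least 1 m6A site was called in either mouse. Usp18 was left out. They were taken by symbol alone, 34 Usp and 6 Otud genes out of 8800 genes with a called site. Of the 63 protein-coding RefSeq symbols of that form, 23 had no called site.

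N6-methyladenosine (m6A) is a methyl mark on adenosines inside messenger RNA, placed by the METTL3 and METTL14 complex and read by YTH-domain proteins that act on RNA decay and translation. Ubiquitin chains assembled on receptor-proximal adaptors and kinases carry Toll-like receptor signals towards NF-kB and interferon, and deubiquitinases cut those chains. The USP enzymes are the largest deubiquitinase family, and the OTU enzymes, to which the Otud genes belong, are known for choosing between types of ubiquitin linkage. Some proteins of the USP name have lost the activity or never had it. Usp39 is an inactive relative that works in the spliceosome, and Usp6nl is a GTPase-activating protein for Rab5.

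Both mice were wild type, and their bone marrow-derived macrophages had been exposed to lipopolysaccharide for 3 h, so every value below comes from stimulated cells and none from resting ones. The table names also carry the term NTC, which the labels leave unexplained. Strain, sex and age were not stated in the sources used here. Each mouse gave 1 immunoprecipitated (IP) and 1 input library of poly(A)-selected RNA, so there were 4 libraries. The deposited data list 45668 called sites for mouse 1 and 47747 for mouse 2, each 1 base on 1 strand of mm10. For each site the authors give a score, which is above 10 for every listed site, together with a fold, the read starts of the IP over those of the input. A site is called enriched here at a fold of 8 or more, and shared enriched when that held at the same base and strand in both mice. Read numbers are not in the tables, so library depth is unknown and a single fold has no error of its own. The folds of both mice are therefore given for each site. No test was run on the members, and shares come with 95% intervals from the exact (Clopper-Pearson) method, for counting error only. Called sites were present for 10 of 10 macrophage markers, 1 of 8 lymphocyte markers (Lck), 5 of 8 neutrophil markers and 1 of 6 fibroblast and endothelial markers (Kdr). The part of other cells in the members' sites was not tested. In such bulk samples, fewer cells of a type and less RNA per cell cannot be told apart.

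The bases around 4 of the members' sites near the start of the gene show what a called site is. They were chosen because both folds or the position bear on the results below, and the called adenosine is in capitals. The sequences are from the RefSeq promoter table of GRCm38.p6, which shares the coordinates of mm10, and are written along the strand of the gene.
Otud5, chrX:7842108-7842131, plus strand, coding sequence: ggtgccgccatgActattctcccc
Usp8, chr2:126707348-126707372, plus strand, 5' UTR: ccgtcgccacgcAatgcgaatcggg
Usp38, chr8:81014913-81014937, minus strand, 5' UTR: ctattcgccagtAtttctgcttccg
Usp15, chr10:123196970-123196994, minus strand, 5' UTR: gccggggacgccAttcccacaatgc

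The Otud5 site lies directly behind an ATG, with folds of 31.1 in mouse 1 and 22.1 in mouse 2, and its adenosine is the centre of the letters GAC. DRACH, the known preference of METTL3, has AC at its core. The Usp8 site had folds of 8.77 and 9.87, and the Usp38 site had folds of 13.0 and 19.3 and lay 19 bases before the start used in the promoter table. That position is still inside the RefSeq gene, 88 bases from its first base. The Usp15 site was called in mouse 2 only, at a fold of 16.4. The promoter table held a window for 30 of the 40 members, and 12 of their called sites fell inside one. All 12 were at an adenosine, as were all 5321 such sites of all genes, while adenosine made up 21.6% of the 50 bases after the start in all windows. The site caller is not known. Whether it keeps adenosines alone, which would fix this outcome beforehand, could not be told, so nothing is concluded from it. None of the 10 members' sites annotated to the 5' UTR was centred in GAC on the strand of the gene. The same letters surrounded 2.19% of 4847 such 5' UTR sites of all genes, 6.87% of 131 coding-sequence sites in these windows and 6.32% of every adenosine in the 50 bases after the start. On either strand, 74.6% of all windows held GAC somewhere in those 50 bases. The base before the adenosine was C at 5 of the members' 10 sites, at 61.6% of those of all genes and at 30.0% of every adenosine in the 50 bases after the start. Antibodies against m6A are known to bind m6Am, the methylated adenosine beside the cap, as well, and which of these marks the 5' UTR sites carry was not tested.

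Nearly all deubiquitinase transcripts that were seen in both mice had an enriched site at the same base in both. Sites were called for 36 members in mouse 1 and 39 in mouse 2. Of the 40 members 35 had called sites in both, near the share of all genes (7827 of 8800). Of those 35, 34 had at least 1 shared enriched site (97.1%, interval 85.1 to 99.9), against a background of 86.9% of the 7827 genes called in both mice. At a fold of 16 or more in both mice 28 of the 35 remained (80.0%, interval 63.1 to 91.6), against a background of 60.2%. The whole count is therefore not far above what genes with called sites show in general, and it says nothing of transcripts without a called site.

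Across the 40 genes 304 different sites were called, all of them inside the RefSeq gene named beside them. In mouse 1 217 of 242 called sites were enriched (89.7%, interval 85.1 to 93.2), against a background of 81.7% of its sites. In mouse 2 239 of 277 were enriched (86.3%, interval 81.7 to 90.1), against a background of 79.1%. Both mice thus had a somewhat larger share of enriched sites in these genes than in the tables as a whole. The number called at the same base in both mice was 215, which is 88.8% of the members' sites in mouse 1 and 77.6% in mouse 2. Over all genes these shares were 83.6% and 80.0%, so the members were above in mouse 1 and below in mouse 2. Of these 215 sites, 187 were enriched in both mice, against a background of 76.9% of all sites called in both. A further 12 were enriched in mouse 1 alone, 12 in mouse 2 alone and 4 in neither. The median fold of the 187 sites was 23.1 in mouse 1 and 22.1 in mouse 2, close to the 21.6 and 22.1 of all genes and to the 26.1 and 24.1 of the Trim and Rnf ubiquitin ligase genes. Among sites past the fold limit in both mice, the strength of a typical site was thus about that of all genes. Over all called sites, enriched or not, the members' median fold was 17.9 in mouse 1 and 16.9 in mouse 2. That was somewhat above the 15.0 in each mouse over all genes, and near the 17.0 and 16.4 over the Trim and Rnf genes.

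The sites were spread unevenly over the genes. Members with a shared enriched site held a median of 4 and a mean of 5.5, against a median of 3 and a mean of 4.19 over all genes. Only 5 of 34 (14.7%) had a single one, against 28.1% of all genes, and 5 (14.7%) had 10 or more, against 9.27%. These 5 were Otud1 and Usp47 with 16 each, Usp42 with 15, Usp38 with 13 and Usp10 with 10. Otud1, Usp47, Usp42 and Usp38 together held 60 of the 187 sites (32.1%). The number of sites did not follow the genomic span of the gene, introns included. Spearman's rho was 0.07 over the 34 genes, which share the same libraries, and 0.065 over 6734 genes with a shared enriched site. Otud1 reached 16 sites in a span of 3549 bases while Usp34 had 8 in 187376 bases. The length of the transcripts was not used. Members with more sites tended to have a stronger strongest site (rho 0.55 over 34 genes, 0.70 over 6734 genes). A positive rho is partly built in here, since the highest of more values tends to be higher. Whether strength and number of sites are related beyond that was not tested.

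**Figure D1:**
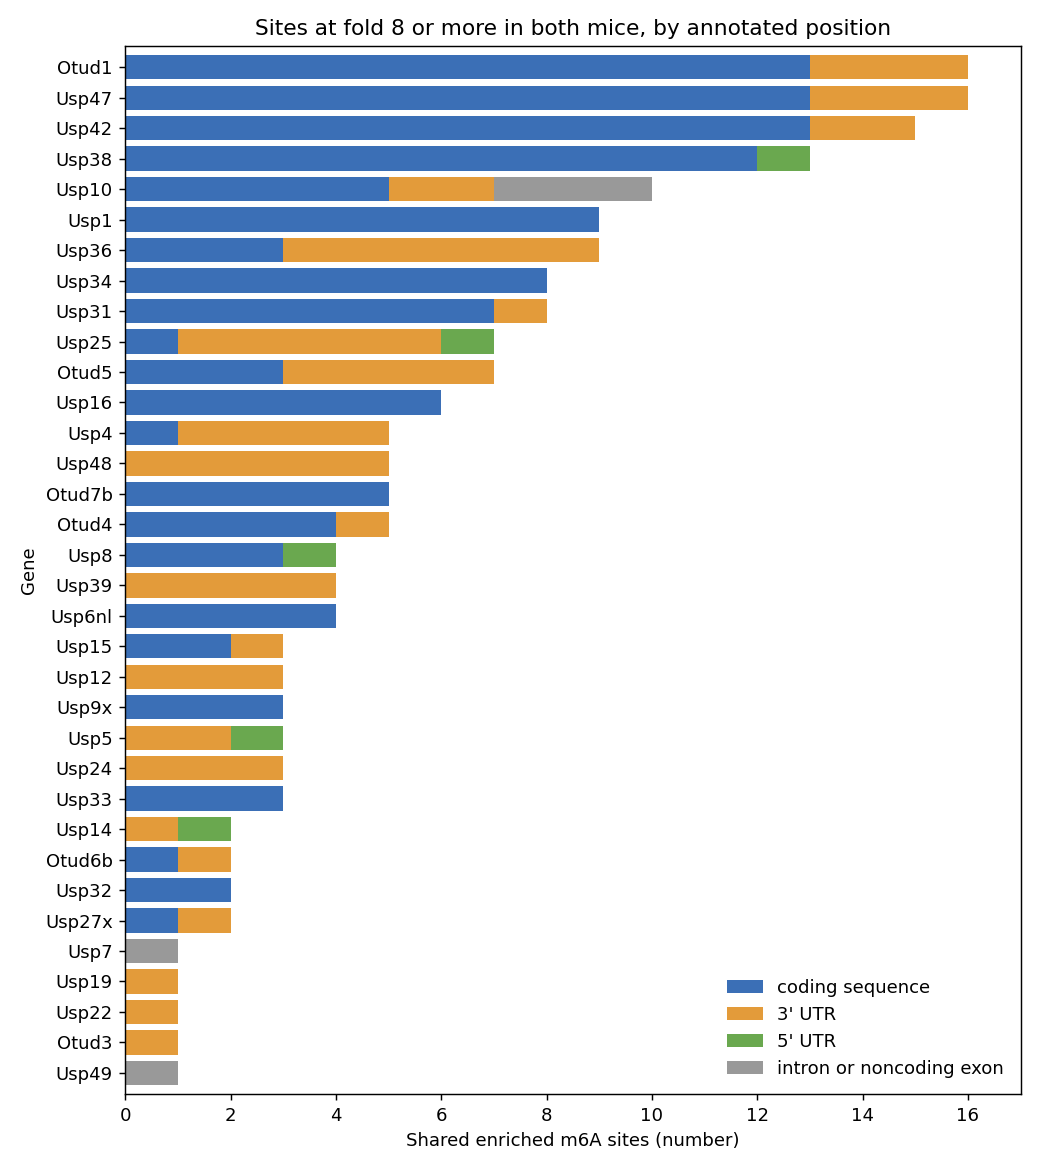
Number of shared enriched m6A sites per gene (horizontal axis) for the genes with at least 1, coloured by annotated position. Otud1 and Usp47 lead with 16 sites each, and coding-sequence sites make up most of the bars of Otud1, Usp47, Usp42 and Usp38.

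More of the members' sites lay in coding sequence, and fewer in the 5' UTR, than in the average gene. Coding sequence held 122 of the 187 shared enriched sites (65.2%, interval 57.9 to 72.0), against 43.4% of 28479 sites of all genes. The 3' UTR held 55 (29.4%, interval 23.0 to 36.5), against 38.1%, and the 5' UTR held 5 (2.67%, interval 0.874 to 6.13), against 13.9%. The 5' UTR share was 4.60% with mouse 2 alone and 5.12% at a log2 fold of at least 1. The remaining sites were 4 in distal introns and 1 in a noncoding exon. The Trim and Rnf genes had a similar distribution, with 63.1% in coding sequence, 25.7% in the 3' UTR and 8.55% in the 5' UTR. The higher share in coding sequence was thus seen in both gene groups. Among the deubiquitinases it rested in part on a few genes: without Otud1, Usp47, Usp42 and Usp38, coding sequence held 55.9% of 127 sites (interval 46.8 to 64.7) and the 3' UTR 37.0%. Counted by gene, 23 of 34 members had a shared enriched site in coding sequence, 22 in the 3' UTR and 5 in the 5' UTR (Usp5, Usp8, Usp14, Usp25 and Usp38). Over all genes it was 3361, 3890 and 2608 of 6798. By gene, the members' share with a 3' UTR site was thus not below that of all genes, unlike the share of sites.

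The strongest site of a gene was in the 3' UTR for 18 of the 34 members, in coding sequence for 13, in the 5' UTR for Usp14, in a distal intron for Usp7 and in a noncoding exon for Usp49. All genes had the same order, with 2671 of 6798 strongest sites in the 3' UTR and 2388 in coding sequence, while the Trim and Rnf genes had 26 and 31. The median fold of the members' strongest sites was 34.1 in mouse 1 and 31.4 in mouse 2. It was 31.1 in each mouse over the Trim and Rnf genes, and 27.1 and 28.5 over all genes. Called 5' UTR sites were enriched less often than others. Of the members' called 5' UTR sites, 8 of 15 reached a fold of 8 in mouse 1 (53.3%, interval 26.6 to 78.7) and 11 of 21 in mouse 2 (52.4%, interval 29.8 to 74.3). The corresponding shares were 94.6% and 88.4% in coding sequence and 88.6% and 90.1% in the 3' UTR. Over all genes the 5' UTR was also the lowest of these, with 64.8% and 61.9% of its called sites enriched. Coding sequence had 87.7% and 84.8% over all genes, and the 3' UTR 87.8% and 85.7%.

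Along the genes, the sites lay late and close together, as in other genes. The last 10% of the gene span held 43.9% of the 187 sites (44.2% over all genes) and the first 10% held 7.49% (14.5% over all genes). Of the 187 sites, 118 (63.1%) had another shared enriched site of the same gene within 100 bases, against 63.9% over all genes, and the median gap between neighbours was 83 bases, against 88. The 3' UTR sites lay a median of 1189 bases before the end of the gene, against 1160. All of these distances are on the genome, because exon boundaries were not used here.

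Otud1, an OTU enzyme that acts on NF-kB and interferon signalling proteins, had the site with the highest mean log2 fold of any member and shared the highest number of shared enriched sites with Usp47. It had 17 called sites in mouse 1 and 20 in mouse 2, with 13 of its 16 shared enriched sites in the coding sequence and 3 in the 3' UTR. Its strongest site, in coding sequence at chr2:19659363, had folds of 111 (mouse 1) and 413 (mouse 2). By that site Otud1 ranked 52nd of 6798 genes, and by its number of sites it shared rank 171. The folds of its 16 sites ran from 8.02 to 111 in mouse 1 (median 40.9) and from 8.67 to 413 in mouse 2 (median 37.6). The value of 413 stands apart. The next strongest Otud1 site, at 19658962, had 86.6 and 125, both below the 94.3 and 173 of the strongest Usp15 site. Within 557 bases, chr2:19658882-19659438, 11 of the 16 sites were found, 10 of them in the coding sequence and 1 in the 3' UTR. In that stretch the folds ran from 16.8 to 111 in mouse 1 and from 25.7 to 413 in mouse 2, so every site cleared the limit by a factor of 2 or more.

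Otud1 belongs to the members with a role in NF-kB, Toll-like receptor or RIG-I signalling. Of 17 genes listed for this role, Otud1 and its 16 sites included, 14 had a called site. All 13 with called sites in both mice had a shared enriched one, against the background of 86.9% of such genes. They held 80 sites, with a median fold of 24.0 in mouse 1 and 22.1 in mouse 2. No site was called for Usp2, Usp11 and Otud7a, and Usp21 had none that was shared. Coding sequence held 47 of the 80 sites, the 3' UTR 27 and the 5' UTR 2. For the list the share in coding sequence (58.8%) was below that of all 40 genes.

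Usp15, which is known to deubiquitinate TRIM25 and components of TGF-beta signalling, had 3 shared enriched sites within 159 bases on chromosome 10. They lay on both sides of the boundary between coding sequence and 3' UTR. Its strongest, in the 3' UTR at 123113478, had folds of 94.3 and 173, and the neighbouring coding-sequence site at 123113524 had 66.9 and 99.7. The third, at 123113636, had 26.6 in mouse 1 and 13.1 in mouse 2. By its strongest site Usp15 ranked 266th of 6798 genes.

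Usp4, the paralogue of Usp15 with a role in spliceosome assembly and TRAF signalling, had the same layout. All 5 of its shared enriched sites, 1 in the coding sequence and 4 in the 3' UTR, lay within 375 bases, chr9:108391827-108392201. The strongest, in the 3' UTR at 108391944, had folds of 88.2 and 117, and the coding-sequence site had 36.4 and 45.4. The weakest in mouse 2, at 108392201, had 23.1 and 9.31.

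Usp25, a negative regulator in Toll-like receptor signalling through TRAF3, had 6 of its 7 shared enriched sites within 210 bases, chr16:77115499-77115708. There 1 site was in coding sequence and 5 were in the 3' UTR. The site at 77115594 had folds of 204 (mouse 1) and 46.0 (mouse 2), and the site at 77115708 had 23.9 in mouse 1 and 217 in mouse 2. The order of the sites within this cluster was thus not the same in the mice, although the scores of both sites were nearly equal between mice (96.5 and 96.8 at the first site, 82.3 and 82.1 at the second). The seventh site, in the 5' UTR at 77013740, had folds of 17.5 and 16.4.

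Usp38, known to act on the kinase TBK1, had 12 shared enriched sites in coding sequence and 1 in the 5' UTR, whose sequence is given above. Its folds ran from 9.03 to 56.2 in mouse 1 (median 13.0) and from 8.67 to 46.2 in mouse 2 (median 20.2). Many of its sites lay near the limit of 8, and 18 sites were called in each mouse. Its coding-sequence sites fell into a group near each end of the gene, 8 between 80984538 and 80985738 and 4 between 81013876 and 81014432 on chromosome 8.

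Usp48, which acts on the NF-kB subunit RelA, had its 5 shared enriched sites in the 3' UTR, the strongest at chr4:137656919 with folds of 34.1 and 35.6. Otud5 (DUBA) and Otud7b (Cezanne), both known to trim ubiquitin from TRAF3, had 7 and 5 sites. Those of Otud5 were 3 in the coding sequence and 4 in the 3' UTR, and ran from 11.4 to 43.1 in mouse 1 and from 10.6 to 60.2 in mouse 2. Its strongest, in the 3' UTR at chrX:7874645, had 18.1 and 60.2. Those of Otud7b were all in coding sequence within 911 bases, the strongest at chr3:96155853 with folds of 27.1 and 27.0. The other Otud genes were less marked. Otud4, a deubiquitinase that acts on MyD88, had 5 sites, with a strongest of 18.1 and 16.9 in the 3' UTR at chr8:79674127. Otud6b had 2 sites, with 24.7 and 17.97 in the 3' UTR at chr4:14810193. Otud3 had 1 site in the 3' UTR at chr4:138895565, with folds of 8.02 and 11.6, just over the limit in mouse 1. A shared enriched site was present in 6 of 6 Otud genes (interval 54.1 to 100), against the background of 86.9%. The folds of their strongest sites ran from the highest of the 40 genes to among the lowest.

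**Figure D2:**
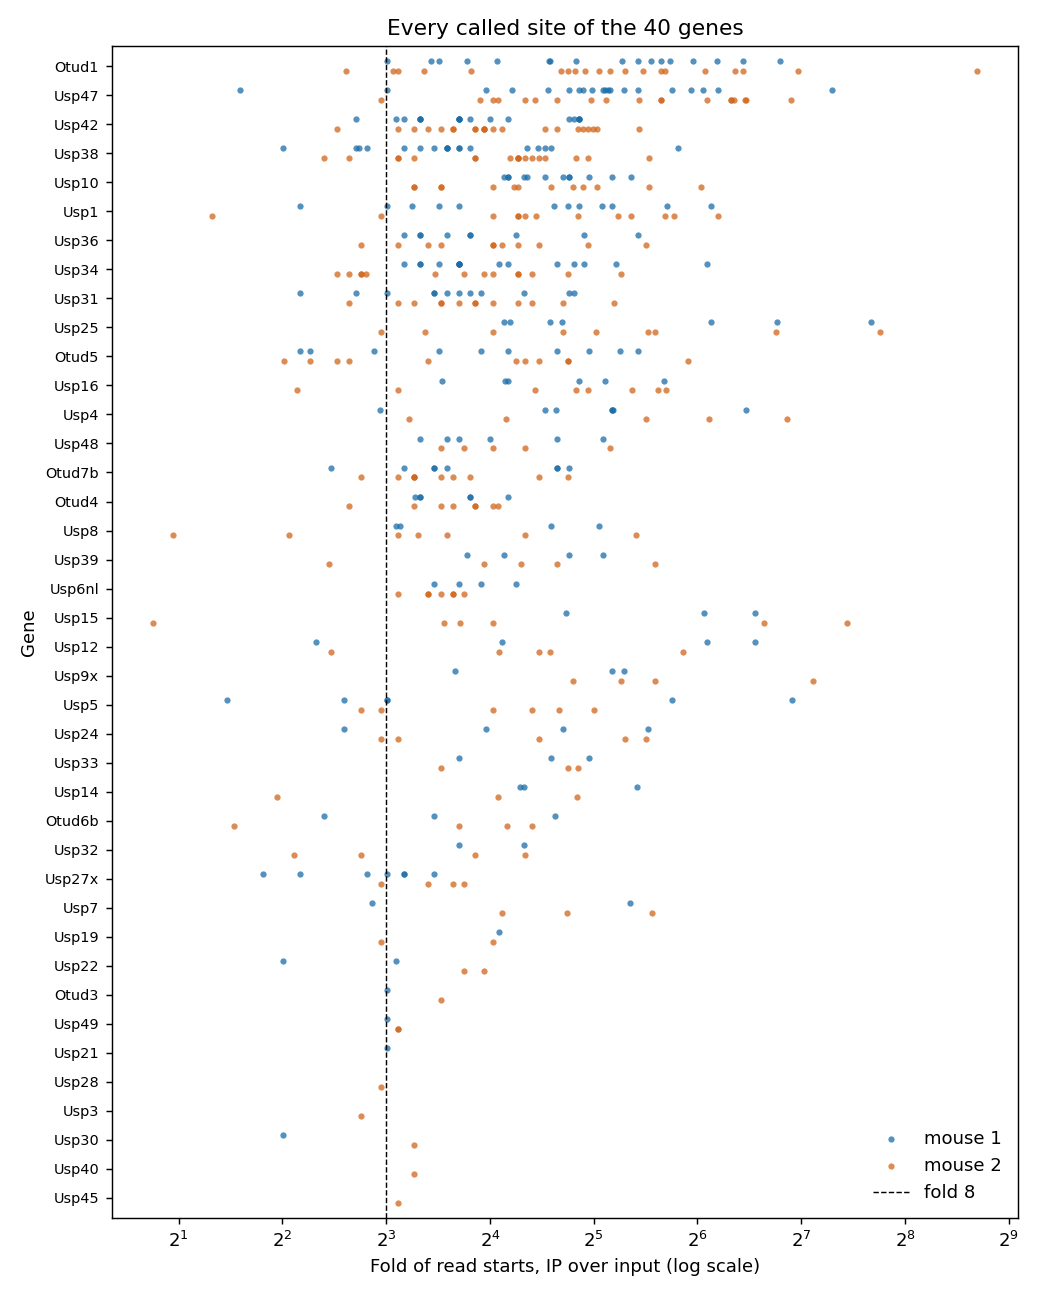
Fold of IP over input read starts (horizontal axis, log scale) for every called site of the 40 genes, 1 point per site and mouse, with the limit of 8 as a dashed line. Otud1, Usp25 and Usp15 reach folds of 173 or more in at least 1 mouse, while Otud3 and Usp49 stay near the limit.

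The members listed for DNA repair and the cell cycle included some of the most marked. Of 10 listed genes 6 had a called site. All 4 with called sites in both mice had a shared enriched one, against the background of 86.9%. The list held 31 sites, with a median fold of 31.6 in mouse 1 and 35.6 in mouse 2. No site was called for Usp11, Usp13, Usp29 and Usp37. Usp47 and Usp1, with 25 of the 31 sites, weigh heavily in its median.

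Usp47, a regulator of DNA polymerase beta, had 20 called sites in mouse 1 and 19 in mouse 2. Of its 16 shared enriched sites, 13 were in the coding sequence and 3 in the 3' UTR. Its strongest, in the 3' UTR at chr7:112110236, had folds of 157 and 50.1, and the 3' UTR site at 112110197 had 61.2 and 119. A stretch of 529 bases, chr7:112092850-112093378, held 12 of the 16 sites, all in coding sequence and far from the 3' UTR group. This was the densest stretch of up to 600 bases among the members. The folds there ran from 8.02 to 73.2 in mouse 1 and from 14.9 to 88.6 in mouse 2, with medians of 34.3 and 59.2. The third 3' UTR site, at 112110404, had 29.1 and 16.9, so the folds of the coding cluster and of the 3' UTR overlapped in both mice.

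Usp1, which acts on FANCD2 and PCNA and works with the cofactor WDR48, had 9 shared enriched sites, all in coding sequence. They ran from 9.53 to 70.2 in mouse 1 and from 19.3 to 73.2 in mouse 2, and the strongest, at chr4:98934178, had 52.1 and 73.2. In the 5' UTR Usp1 had a site called in both mice that stayed under the limit, at 98923952 with 4.51 and 2.50. Usp12, the other WDR48 partner with called sites, had 3 shared enriched sites within 50 bases of the 3' UTR. The strongest, at chr5:146737569, had folds of 94.3 and 58.3, and the weakest, at 146737520, had 17.4 and 17.0. The transcript of Wdr48 itself had 6 shared enriched sites, the strongest with folds of 89.3 and 178, and Wdr20 had 4, the strongest with 31.1 and 31.8. No site was called for Usp46, the third partner. Usp7, which controls the p53 and MDM2 pair, was the member whose only shared enriched site was in a distal intron, at chr16:8738916 with folds of 40.8 and 26.8. A second intronic site 16 bases away, at 8738932, had 7.27 in mouse 1 and 47.2 in mouse 2.

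Members known for histone and chromatin work ranged from strongly marked to barely over the limit. Of 12 genes listed for this role, 9 had a called site. All 7 with called sites in both mice had a shared enriched one, against the background of 86.9%. They held 23 sites, 10 in the coding sequence and 11 in the 3' UTR. The median folds of the list were 17.4 and 21.7. No site was called for Usp44, Usp46 and Usp51. Within the list, Usp12 and the nucleolar Usp36 had the strongest sites. Usp36 had 9 sites, 3 in the coding sequence and 6 in the 3' UTR within 506 bases, the strongest at chr11:118261128 with folds of 43.1 and 45.3. Usp16, a histone H2A deubiquitinase, had 6 sites, all in coding sequence within 274 bases. They ran from 11.6 to 51.1 in mouse 1 and from 21.7 to 52.0 in mouse 2, and the strongest, at chr16:87479621, had 51.1 and 30.8.

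The shared enriched sites of the remaining chromatin members, apart from Usp7, had folds of at most 13.5. Usp22, the catalytic subunit of the SAGA deubiquitinase module, had 1 shared enriched site in the 3' UTR at chr11:61152837, with folds of 8.52 and 13.5. A second Usp22 site called in both mice, at 61152823, had 4.01 in mouse 1 and 15.4 in mouse 2. Its relative Usp27x had 2, the stronger in coding sequence at chrX:7374167 with 9.03 and 13.5. Usp49 had 1, at chr17:47672313 with 8.02 and 8.67, which the table of mouse 1 places in a noncoding exon and that of mouse 2 in coding sequence.

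The 7 genes listed for the spliceosome, ribosome and nucleolus each had a shared enriched site, against the background of 86.9% of genes. They held 38 sites with median folds of 25.5 and 23.6, and 17 each in coding sequence and the 3' UTR. Usp15 and Usp4, described above, had the strongest. Usp10, which works on p53, stress granules and stalled ribosomes, had 10 shared enriched sites, 6 of them within 277 bases. Its strongest, at chr8:119956944, had folds of 26.1 and 65.5. The deposited tables disagree on 4 of its sites, which mouse 1 has in coding sequence or the 3' UTR and mouse 2 in a distal intron. Across all called sites 636 carried such a difference, and 5 of them were members' sites. The inactive Usp39, of the tri-snRNP, had 4 shared enriched sites within 197 bases of the 3' UTR. The strongest of them, at chr6:72319112, had 34.1 and 19.7.

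The members of the endosome, membrane and trafficking list were marked mostly in coding sequence, with 15 of their 17 sites there, at median folds of 17.0 and 16.4. Of 9 listed genes 7 had called sites in both mice. A shared enriched one was present in 6 of those 7 (85.7%), against the background of 86.9%. No site was called for Usp20 and Usp35. The strongest was that of Usp9x, a large enzyme of endocytosis and cell polarity, at chrX:13156254 with folds of 39.1 and 139. Its other shared enriched sites had 36.1 and 38.5 at 13156296, and 12.7 and 48.1 at 13156532. Usp8, which works at endosomes with the ESCRT machinery, had 4 sites, the strongest in coding sequence at chr2:126742330 with 33.1 and 42.4. Usp33 had 3 within 61 bases of coding sequence, the strongest at chr3:152368562 with 31.1 and 27.0. Usp32 had 2, the stronger at chr11:84988681 with 20.1 and 14.4, and Usp6nl had 4, the strongest at chr2:6441406 with 19.1 and 12.5. Usp19, anchored in the endoplasmic reticulum, had 1, in the 3' UTR at chr9:108502044 with 17.0 and 16.4. The mitochondrial Usp30 was the 1 member with called sites in both mice and no shared one. Its 3' UTR site was called at chr5:114122671 in mouse 1, at a fold of 4.01, and at 114122782 in mouse 2, at 9.63.

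Usp5, which takes apart unanchored ubiquitin chains, and Usp14, the deubiquitinase of the proteasome, are the chain-recycling members with called sites; Usp13, also listed, had none. Their 5 shared enriched sites were 3 in the 3' UTR and 2 in the 5' UTR, with none in coding sequence. In Usp5 the strongest site, in the 3' UTR at chr6:124815494, had folds of 120 and 32.0. Its 5' UTR had 4 called sites within 10 bases, of which only that at 124829444 was enriched in both mice, with 8.02 and 16.4. In Usp14 the strongest site was in the 5' UTR at chr18:10030081, with 42.6 and 28.6, and a 3' UTR site at 9995970 had 19.6 and 16.9.

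The members on no role list also had shared enriched sites, apart from Usp40. Usp42 had 15, with 13 in coding sequence, of which 8 lay within 568 bases, chr5:143715160-143715727. Its folds were moderate throughout, from 8.52 to 29.1 in mouse 1 and from 8.67 to 43.3 in mouse 2, and its strongest site, in the 3' UTR at 143711047, had 29.1 and 43.3. Usp34, a regulator of axin in Wnt signalling, had 8 in coding sequence, the strongest at chr11:23488725 with 68.2 and 21.2. Usp31 had 8, the strongest in coding sequence at chr7:121649385 with 27.1 and 36.6. Usp24 had 3 in the 3' UTR, the strongest at chr4:106440914 with 46.1 and 45.3.

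**Figure D3:**
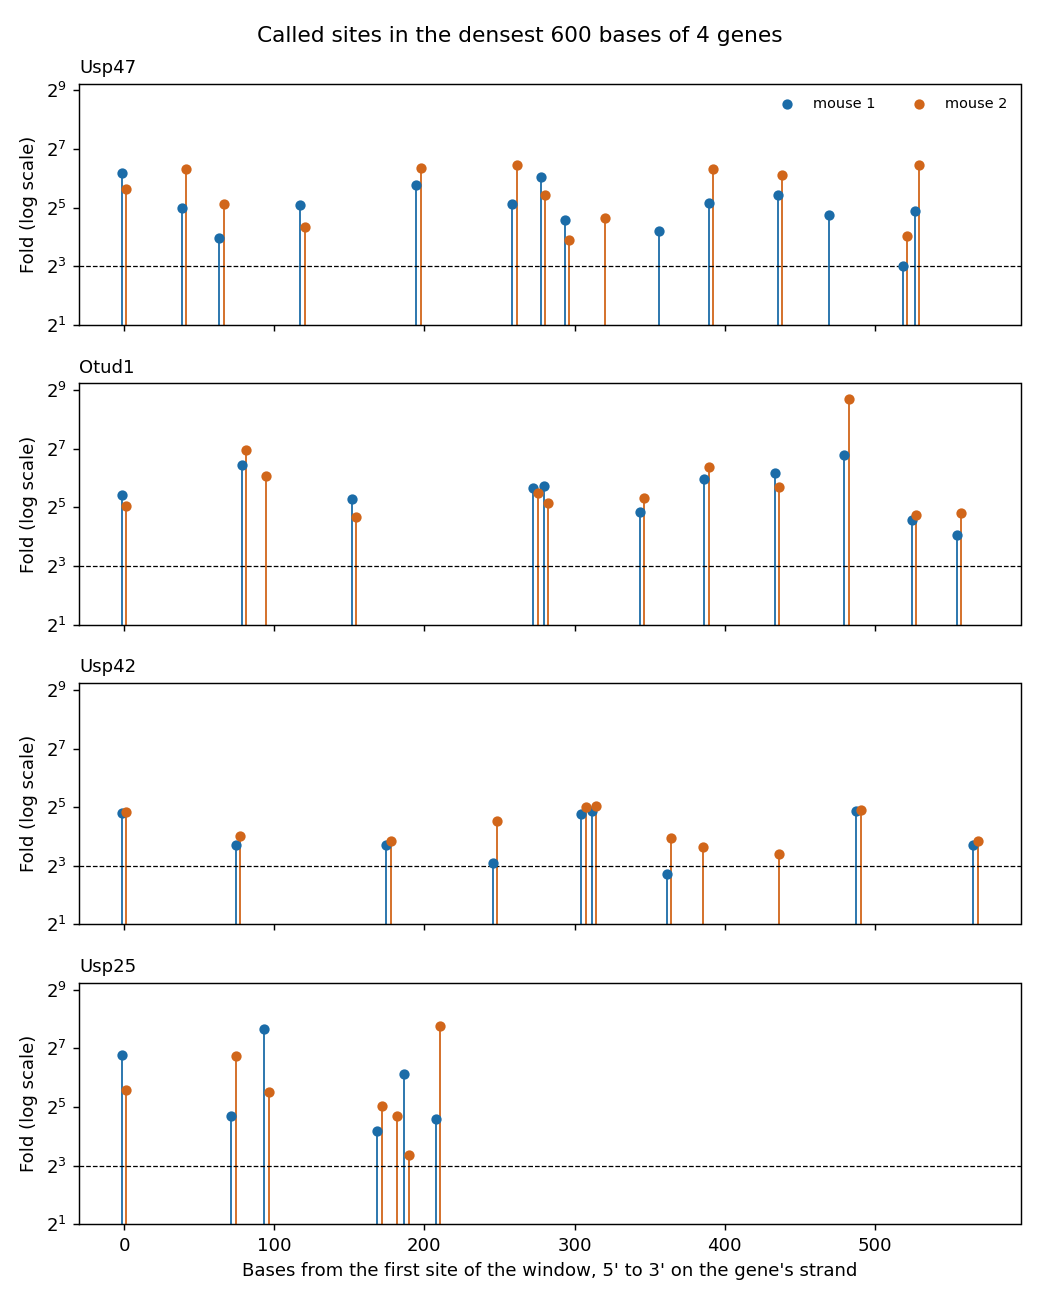
Fold of read starts (vertical axis, log scale) of called sites against their distance in genomic bases from the first site, for the densest 600 bases of Usp47, Otud1, Usp42 and Usp25, with the limit of 8 as a dashed line. Usp47 holds 12 shared enriched sites in 529 bases, Otud1 11 in 557, Usp42 8 in 568 and Usp25 6 in 210, and the order of the Usp25 sites differs between mice.

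For 5 of the 40 members a site was called in 1 mouse only, a share near that of all genes (973 of 8800). In mouse 1 Usp21 had a coding-sequence site at chr1:171286755 with a fold of 8.02. In mouse 2 Usp3, a histone H2A deubiquitinase, had one in coding sequence at chr9:66518419 (6.74), and Usp45, which acts on the repair factor ERCC1, had one in coding sequence at chr4:21824785 (8.67). Also in mouse 2, Usp28, a deubiquitinase of MYC, had one in the 3' UTR at chr9:49041561 (7.70), and Usp40 one in the 3' UTR at chr1:87946113 (9.63). All 5 had 1 site with a fold under 10. Across the members, sites called in 1 mouse only had a median score of 13.2 in mouse 1 and 15.6 in mouse 2, against 39.5 and 40.9 for sites called in both. The sites seen once were thus mostly low-scoring ones. The 23 genes without a called site are Otud6a, Otud7a, Usp2, Usp9y, Usp11, Usp13, Usp20, Usp26, Usp29, Usp35, Usp37, Usp43, Usp44, Usp46, Usp50, Usp51, Usp53, Usp54 and the Usp17l genes (Usp17la to Usp17le). For these, lack of the mark and too little RNA to call it cannot be told apart, since the tables list called sites alone.

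The members' folds varied between the mice. Over the 215 sites called in both, Pearson's r of the log2 folds was 0.56 and Spearman's rho 0.56, against 0.74 and 0.70 over the sites of all genes and 0.76 and 0.74 over those of the Trim and Rnf genes. These are descriptions, since the sites share animals, libraries and transcripts. The scores of the 215 sites ranked more alike, with a rho of 0.84 (0.85 over all genes). Over the shared enriched sites r was 0.59, against 0.66 over all genes. The median absolute difference was 0.62 on the log2 scale, the same as over the Trim and Rnf genes (0.62), against 0.56 over all genes. Folds lay within 2-fold of each other at 148 sites (68.8%), against 67.2% over the Trim and Rnf genes and 73.2% over all genes, and mouse 2 was the higher at 118 (54.9%, interval 48.0 to 61.7). Without Otud1, Usp47, Usp42 and Usp38 the correlation r was 0.48 over 149 sites.

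A difference of over 4-fold was seen at 14 of the 215 sites, against 1175 of 36752 sites of all genes. The largest among the members was at the Usp25 site 77115708 described above, 23.9 against 217. Next was the Usp5 5' UTR site at 124829437, with 2.76 in mouse 1 and 21.2 in mouse 2, and then the Usp25 site at 77115687, with 70.2 in mouse 1 and 10.4 in mouse 2. Divided by the constant of its table, each of these folds is a ratio of whole numbers. At the first Usp25 site the reduced ratios were 143 to 6 in mouse 1 and 225 to 1 in mouse 2, and at the Usp5 site 11 to 4 and 22 to 1. At the second Usp25 site they were 70 to 1 and 97 to 9. In all 14 sites the higher fold reduced to a ratio to 1, as it did at 168 of the other 201 sites (83.6%). The lower fold did so at 5 of the 14 and at 123 of the 201. A reduced ratio does not give the reads themselves, and the part of low input counts in these differences was not tested.

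**Figure D4:**
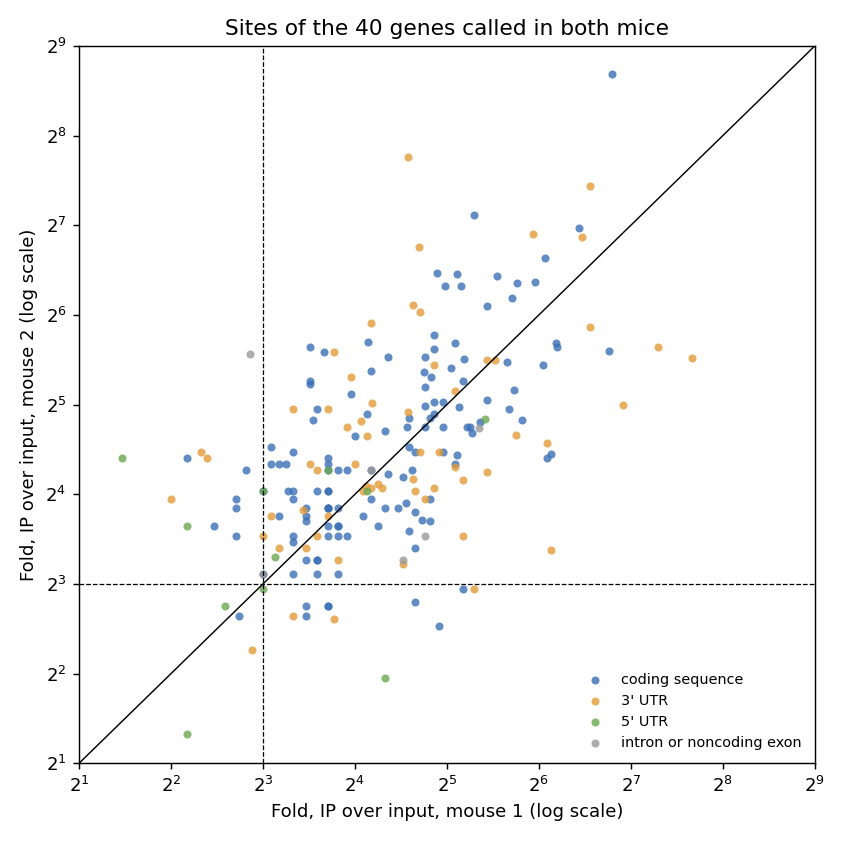
Fold of each site called in both mice, mouse 1 on the horizontal and mouse 2 on the vertical axis (both log scales), coloured by annotated position. The points scatter around the line of equal folds with a Pearson's r of 0.56 on the log2 scale, and 187 of the 215 are at 8 or more in both mice.

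Genes listed under other deubiquitinase families gave a comparison, and the values are for that list, not for deubiquitinases alone. Of 30 listed genes 24 had a called site, 22 in both mice, and 16 of those 22 (72.7%) had a shared enriched site, below the 86.9% background. Among those without one were Bap1, Psmd14, Cops5 and Stambp. The 16 genes held 115 sites, of which 66.1% were in coding sequence, 24.3% in the 3' UTR and 9.57% in the 5' UTR, at median folds of 26.1 and 28.6. Vcpip1 had 36 shared enriched sites and Tnfaip3 had 26, each more than any Usp or Otud member. These genes thus weigh heavily in the shares and medians of the list. Within the members, coding sequence held 72.2% of the 36 sites of the 6 Otud genes and 63.6% of the 151 sites of the 28 Usp genes with one. Otud1 alone had 16 of those 36 sites, 13 of them in coding sequence, and so weighs heavily in the Otud share. No test of these differences was run.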

How the data were processed

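Sites of m6A were mapped by m6A-eCLIP in macrophages of 2 mice, with 1 IP and 1 input library each. Per the submitters' processing notes, cutadapt 2.7, STAR 2.6.0c and UMI-tools 0.5.1 and the builds mm10 and hg38 were used. The site caller, the annotation and what the score means were not given in the sources used here. Tables were deposited per mouse, without pooling. The score is the authors' deposited value per site, and the fold is their deposited ratio of read starts in IP over input, per the file headers. No read counts were given, so depth is unknown and no count model was run.

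Members were matched by symbol in the authors' gene column. Sites without a gene (1445 and 1534) or with joined names (265 and 267, none holding a member) were left out of counts per gene. The end of each deposited interval was taken as the 1-based position. Where the tables annotate a shared site differently, that of mouse 1 was used. Each table's folds share a constant (1.003 and 0.963), so a ratio of exactly 8 becomes 8.02 in mouse 1 and 7.70 in mouse 2, under the limit there. That ratio occurred at 10 and 8 members' sites. Divided by the constant, 70.2% and 75.8% of the members' folds were whole numbers within 1e-06.

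Members and lists were chosen with earlier results of these data known. Genes named with values were the 12 with the strongest shared site, the 8 with most sites (2 tied for the last place), all Otud genes, those without a shared enriched site, the 3 largest differences between mice and the 2 highest of each role list. Others are given because every member was accounted for. No p-value was computed. The counting steps were tested on simulated data. Alternatives covered the fold limit, the score, merging within 5 bases, the position rule, joined names, Usp6nl and each mouse left out. Python 3.11.15, pandas 2.3.3, NumPy 2.4.6, SciPy 1.17.1 and Matplotlib 3.10.9 were used.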

Additional observations from a re-analysis of the deposited data

How the results depend on the processing

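No paired analysis was possible because the deposited fold already compares IP and input within each mouse and no test was made. Over 9 summary results and 11 alternatives, 84 values stayed within the set range of the reported value and 11 moved. At a log2 fold of at least 4 the enriched members' sites fell to 131 in mouse 1 and 155 in mouse 2 and the shared ones to 103, with median folds of 31.1 and 32.0, and 28 genes had a shared site. At a log2 fold of at least 1 the medians were 19.1 and 20.2. At a score of at least 20 they were 26.6 and 27.0, with 30 genes. The median was 20.1 with mouse 1 alone and 19.3 with mouse 2 alone, and the number of genes 35 and 37. These shifts are built into the alternatives, since a stricter limit keeps fewer and stronger sites and 1 mouse needs no second one. The share in coding sequence ran from 61.2% to 65.2% over all alternatives. Counting joined gene names changed nothing, and without Usp6nl 33 genes and 183 sites remained. The limit before each table's constant gave 190 shared sites. Unknown depth limits all statements on single sites.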
